A study of Homo sapiens with 6 samples.

Results

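The 9 genes described here make up a core of the MHC class I pathway in human cells: the heavy chains HLA-B, HLA-C and HLA-E, the light chain B2M, the peptide transporter subunits TAP1 and TAP2, the loading factor TAPBP (tapasin), and the interferon-inducible proteasome subunits PSMB8 and PSMB9. The rule picks them by name and uses no measured value, and they are 9 of the 60624 rows of the deposited expression table. The RNA came from SV-HUC-1, a human urothelial line in long use that was immortalised with the SV40 virus. A group of 3 libraries was from cells exposed for 3 days to 2,6-dichloro-1,4-benzoquinone (DCBQ), a halobenzoquinone disinfection by-product of treated water, and a group of 3 control libraries was from cells given a blank solution for the same time. The labels give no DCBQ concentration, all libraries are of 1 line, and nothing says whether replicates were separate cultures, so a p-value here reflects the spread among these 6 libraries alone, and that spread may be technical. Poly(A) RNA was sequenced, and the values are TPM, a level scaled for gene length and for the library total.

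Class I molecules show fragments of a cell's own proteins to cytotoxic T cells. The proteasome cuts proteins into peptides, TAP1 and TAP2 carry them into the endoplasmic reticulum, and tapasin, calreticulin and the thiol oxidoreductase PDIA3 hold an empty heavy chain with B2M until a peptide fits. Interferon gamma acts in part through IRF1, and the coactivator NLRC5 acts with the RFX, CREB/ATF and NF-Y factors at class I promoters. Most epithelial cells carry class I molecules, and interferon raises them and swaps the proteasome's catalytic subunits for PSMB8, PSMB9 and PSMB10.

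Letter matches to promoter elements known for these signals are shown for 4 members and for 3 other genes whose levels differed between the groups. Windows of 250 bases before each start, from RefSeq on GRCh38.p14, were searched on both strands for the core of the interferon-stimulated response element (GAAANNGAAA), the gamma-activated site TTCNNNGAA, the CREB/ATF core TGACG, the NF-Y core ATTGG and the NF-kB motif. Of the 8 members with a window, 4 held the interferon element core (B2M, TAP1, TAP2 and TAPBP), and so did 3.7% of all 27305 genes with a window. A gene counts once here if any of its windows holds the motif, and 3.0% of the 35116 single windows held this core. The CREB/ATF core was in 6 of the 8, against 24.9% of all genes, the NF-Y core in 5, against 37.0%, the NF-kB motif in 5, against 11.8%, and the gamma-activated site in 2, against 8.1%. The B2M promoter, on the forward strand at chr15:44711317-44711486, ends 31 bases before the RefSeq start and is printed because it holds 4 of the 5 motifs close together. Its capitals mark, in order, 2 overlapping interferon element cores, the NF-kB motif, TGACG and ATTGG.
B2M promoter: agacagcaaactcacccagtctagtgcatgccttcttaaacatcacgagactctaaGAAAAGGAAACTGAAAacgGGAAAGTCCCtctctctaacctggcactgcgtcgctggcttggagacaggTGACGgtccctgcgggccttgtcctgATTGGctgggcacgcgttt

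In the next 6 sequences, each read on its gene's own strand, the capitals mark the interferon element core, with overlapping copies run together. In TAP1 the core lies on the opposite strand and so reads as its reverse complement. The 3 members are at chr6:32853816-32853845 (TAP1), chr6:32838778-32838807 (TAP2) and chr6:33314079-33314108 (TAPBP), all on the reverse strand.
TAP1: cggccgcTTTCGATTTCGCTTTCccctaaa
TAP2: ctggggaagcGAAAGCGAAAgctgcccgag
TAPBP: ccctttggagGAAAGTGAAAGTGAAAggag
The 3 genes that are not members are PSMB10 (chr16:67936852-67936881, reverse), PSME2 (chr14:24146619-24146648, reverse) and ERAP2 (chr5:96876460-96876489, forward). They are printed because all 3 were higher in DCBQ, and were picked with those values known.
PSMB10: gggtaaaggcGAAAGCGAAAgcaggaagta
PSME2: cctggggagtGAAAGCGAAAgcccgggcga
ERAP2: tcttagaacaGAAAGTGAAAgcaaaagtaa
The same core was also in windows of RFX5, which was higher in DCBQ too, and of HLA-F and RELA, which were lower, so 6 of the 24 other listed genes with a window held it, in both directions of change. A match of letters is a description and shows no binding in these cells.

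Only 2 of the 9 genes could be tested. B2M and HLA-B had a mean of at least 1 TPM over the 6 libraries, the level set for testing, and the other 7 did not. No member passed the test in either direction (limma, Benjamini-Hochberg adjusted over 16734 tested genes; unadjusted p = 0.276 for B2M and 0.618 for HLA-B), whereas 52.9% of all tested genes did (13.4% of all tested genes higher and 39.5% lower in DCBQ). The median tested gene differed by -0.21 on the log2(TPM + 1) scale (DCBQ minus control). That shift bears on every small difference here. Rescaling by median of ratios, which brings the median near 0 by design, gave -0.01.

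**Figure D1:**
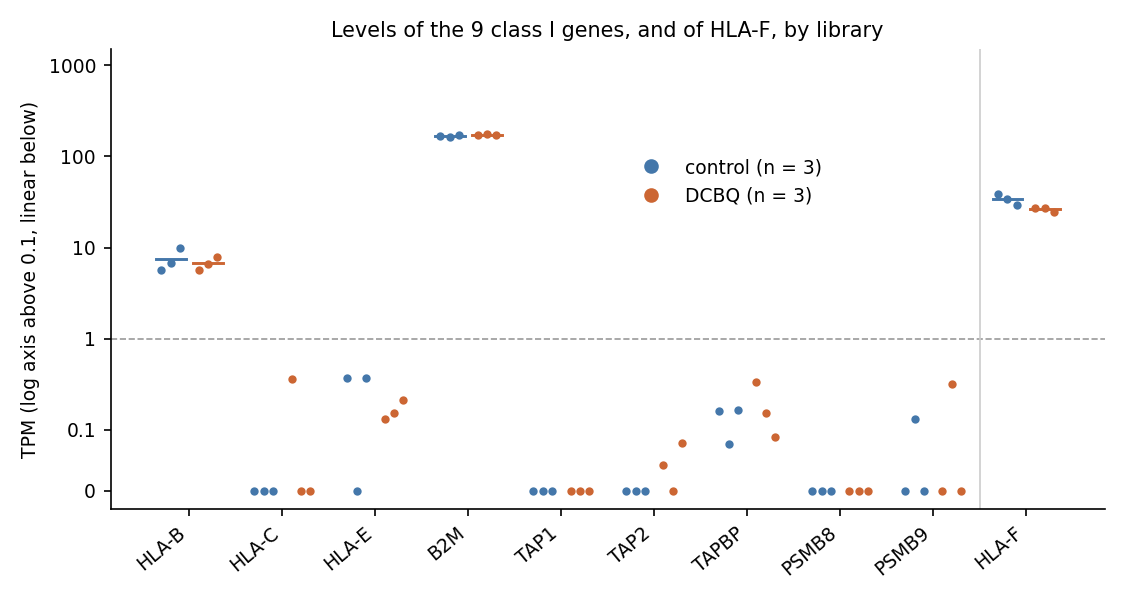
TPM of each gene in each library (points, 3 control and 3 DCBQ), on an axis that is logarithmic above 0.1 and linear below it, with short lines at the group means of tested genes and a dashed line at 1 TPM. B2M lies between 165 and 175 TPM and HLA-B between 5.62 and 9.87, while the other 7 members stay at or below 0.370 and HLA-F, shown for comparison, lies far above them.

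B2M, the invariant light chain of class I molecules, was the highest of the 9, above 95.5% of tested genes in mean level. HLA-B came next, above 36.6%. The level of B2M was 168, 165 and 172 TPM in the control libraries and 174, 175 and 172 TPM in the DCBQ libraries. The groups overlapped, and every library was within a narrow band. The means were 168 ± 3.78 and 174 ± 1.39 TPM (SD, n = 3 each), a log2 difference of 0.05 (95% interval -0.04 to 0.14, limma adjusted p = 0.357). Set against the median tested gene, B2M stood 0.26 higher. With median-of-ratios scaling the difference was 0.29 (limma adjusted p = 0.00148), and without the mitochondrially encoded genes in the total it was 0.18 (limma adjusted p = 0.00533), so the call on B2M turns on the scaling. Its gene lies on chromosome 15 (chr15:44711487-44718877, forward, GENCODE 29 on GRCh38), the only member not on chromosome 6, and none of its 50-base words occurs in another gene of that annotation.

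HLA-B, a classical heavy chain, was listed at 5.62, 6.73 and 9.87 TPM in control and at 5.62, 6.62 and 7.92 TPM in DCBQ. The libraries of both groups interleave, and control replicate 3 is the highest. Means were 7.41 ± 2.203 and 6.72 ± 1.15 TPM (SD, n = 3 each), and the log2 difference was -0.10 (95% interval -0.56 to 0.35, limma adjusted p = 0.69). Its sign is not settled: the difference was 0.11 with median-of-ratios scaling, 0.13 with quantile normalization, 0.015 without mitochondrially encoded genes, 0.10 without control replicate 3 and 0.003 without DCBQ replicate 1. The gene model of HLA-B in GENCODE 29 (chr6:31269491-31357188, reverse) is 87698 bases long and covers 2640 of the 3382 bases of HLA-C's model. Of its 50-base words, 17.8% occur in other genes, so how reads were shared among class I genes is uncertain.

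The remaining heavy chains among the members, HLA-C and HLA-E, were at or near 0. HLA-C, the other classical chain among the members (chr6:31268749-31272130, reverse), was listed at 0 in all libraries but DCBQ replicate 1, where it was 0.364 TPM. HLA-E, which presents leader peptides of other class I chains to natural killer cells (chr6:30489467-30494205, forward), was listed at 0.370, 0 and 0.370 TPM in control and at 0.131, 0.155 and 0.215 TPM in DCBQ. Values of the groups overlapped in both genes.

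The peptide transport and loading genes among the members were as low. TAP1 (chr6:32845209-32853978, reverse) was listed at 0 in all 6 libraries. TAP2 (chr6:32821833-32838780, reverse) was listed at 0 in the 3 control libraries and at 0.0428, 0 and 0.0776 TPM in DCBQ. TAPBP (chr6:33299694-33314387, reverse) was the only one of the 7 above 0 in every library, with 0.161, 0.0770 and 0.165 TPM in control and 0.333, 0.153 and 0.0889 TPM in DCBQ, and its groups overlapped.

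The inducible proteasome subunits among the members showed the same. PSMB8, which replaces PSMB5 in the immunoproteasome (chr6:32840717-32844703, reverse), was listed at 0 in all 6 libraries. PSMB9, which replaces PSMB6 (chr6:32844136-32859585, forward), was above 0 in control replicate 2 at 0.131 TPM and in DCBQ replicate 2 at 0.318 TPM, and listed at 0 in the other 4. Across the 7 genes, 26 of 42 values were 0 and the highest was 0.370 TPM. No fold change is given for them. The deposited values do not show whether these genes were silent in the cells, because genes that all cells use were also near 0 on the same stretch of chromosome.

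That stretch holds 8 of the 9 members. Of the 26 neighbouring genes outside the class I system that were listed for comparison, none reached a mean of 1 TPM, the highest was BAG6 at 0.911 TPM, and 5 were at 0 in every library. RPS18, a protein of the small ribosomal subunit that all cells use, was at 0.233 TPM, while 30 other RPS genes had a median of 784 TPM and a lowest value of 3.93. TUBB, a beta tubulin, was at 0.0630 TPM. A window of 5 Mb, chosen after the values were seen (chr6:28500001-33500000), contained 181 coding genes, of which 6 (3.3%) had a mean of at least 1 TPM and 100 were at 0 throughout. In the 5 Mb on either side 103 of 167 (61.7%) did, and in the rest of the genome 12561 of 19700 (63.8%). The 4 placements of such a window that hold all 8 members gave 3.3% to 11.0%. The low values are found in both groups.

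**Figure D2:**
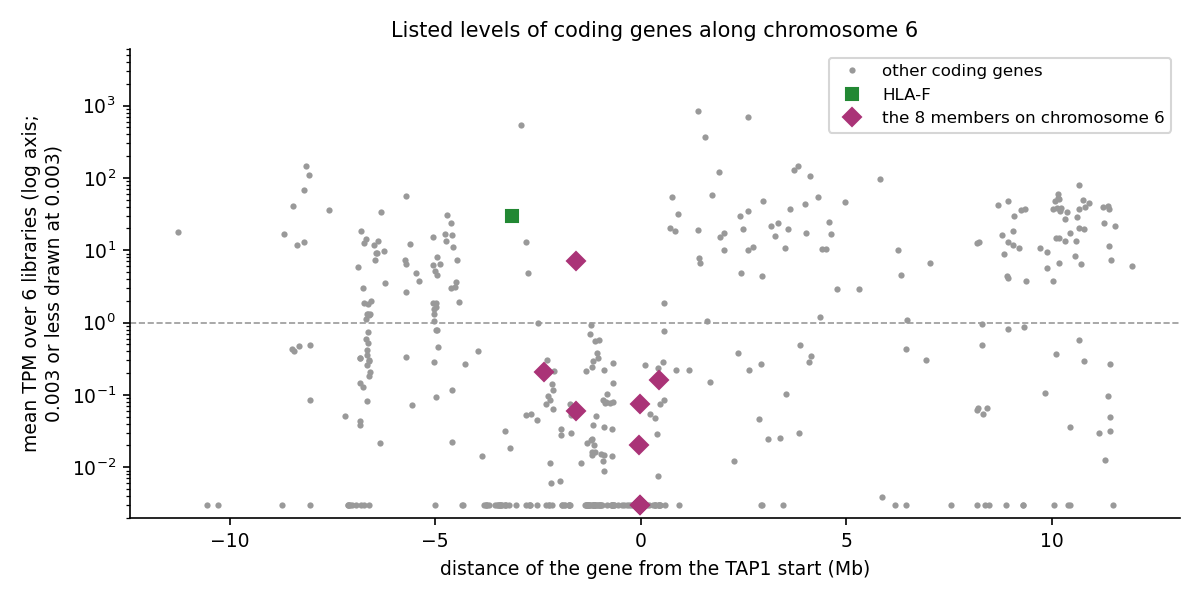
Mean TPM over the 6 libraries (logarithmic axis, values of 0.003 or less drawn at 0.003) of each coding gene against its distance in Mb from the start of TAP1, with the 8 members on chromosome 6 as diamonds, HLA-F as a square and a dashed line at 1 TPM. A band of genes near 0 surrounds TAP1, and the 6 genes at or above 1 TPM in the 5 Mb window include HLA-F at 30.1 TPM and HLA-B at 7.06 TPM.

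Genes of that window at 1 TPM or more included HLA-F, PPP1R11, TRIM31, HLA-B and CUTA, which apart from HLA-F and HLA-B were named after their values were seen. The share of a gene's 50-base words found in another gene of the annotation, with no alternate haplotype compared, was 3.1% in PSMB9, 4.7% in TAPBP, 4.9% in HLA-E, 5.7% in HLA-C, 9.8% in TAP1, 18.2% in PSMB8 and 31.3% in TAP2. It was 0.0% in B2M, 17.8% in HLA-B and 21.6% in HLA-F. The alignment reference, including any alternate MHC haplotypes in it, and the handling of reads with several matches were not given in the sources used here, and their part in the low values was not tested. PSMB3, a proteasome subunit on chromosome 17, was near 0 as well at 0.0667 TPM, while PSMB1, PSMB2 and PSMB4 had 162, 67.2 and 251 TPM. These 4 subunits were named after their values were seen, and the cause of PSMB3's low value was not tested. Outside the 5 Mb window, 2968 of 19700 coding genes were at 0 in every library.

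HLA-F, a non-classical chain and no member, was 38.5, 34.5 and 29.01 TPM in control and 27.4, 26.9 and 24.5 TPM in DCBQ. It fell by 0.35 on the log2 scale (limma adjusted p = 0.0207), but the call was lost without control replicate 1 (-0.26, limma adjusted p = 0.0663), without control replicate 2 (-0.34, limma adjusted p = 0.059), without DCBQ replicate 3 (-0.31, limma adjusted p = 0.0697) and under each other scaling, such as -0.12 with median of ratios. HLA-G was at 0. The pseudogenes HLA-H and HLA-K, near copies of the heavy chains named after their values were seen, had means of 17.1 and 3.52 TPM in control and 18.7 and 5.68 TPM in DCBQ, and only HLA-K passed the test (log2 0.56, limma adjusted p = 0.0318).

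Within a library, a ratio of 2 genes does not depend on scaling. B2M per summed HLA-B, HLA-C and HLA-E was 28.0, 24.5 and 16.8 in control and 28.4, 25.8 and 21.2 in DCBQ, so the groups overlapped. The means were 23.1 ± 5.71 and 25.1 ± 3.68 (SD, n = 3 each; two-sided exact permutation p = 0.6, adjusted 0.6 over 3 ratios), and the log2 difference of 0.14 became -0.07 without control replicate 3. HLA-C and HLA-E were near 0, so the sum was nearly all HLA-B, and HLA-F was not part of it. This ratio is therefore not one of B2M to all heavy chains. Of 9 ratios planned, 6 could not be formed because a gene was at 0 in a library.

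Outside that stretch, most listed genes of the pathway could be tested. The lists that follow leave the 9 members out, and their members were chosen with earlier results of these data known.

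Of the 4 listed genes of the inducible proteasome and its activator, 3 rose and none fell, beside 13.4% higher and 39.5% lower over all tested genes, and the median log2 difference was 0.56, beside -0.21. PSMB10, the one inducible catalytic subunit encoded outside the MHC (chr16:67934502-67937087, reverse), had 72.6, 72.8 and 69.8 TPM in control and 118, 117 and 119 TPM in DCBQ. The groups are far apart, by 1.65-fold in the means (log2 0.71, SE 0.04, limma adjusted p = 7.19e-06). PSME2, the beta subunit of the PA28 activator, which opens the core particle (chr14:24143362-24147570, reverse), had 151, 148 and 164 TPM in control and 355, 324 and 339 TPM in DCBQ, or 2.198-fold (log2 1.13, SE 0.05, limma adjusted p = 2.07e-06). PSME1, the alpha subunit, rose from 310 ± 6.58 to 409 ± 8.79 TPM (SD, n = 3 each; log2 0.40, limma adjusted p = 6.83e-05). PSME3, the nuclear activator, did not pass the test at 147 and 143 TPM (limma adjusted p = 0.521), and passed it higher, by 0.20, with median-of-ratios scaling (limma adjusted p = 0.0201).

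The constitutive subunits that the inducible ones replace, listed with the assembly factor POMP, rose in 4 of 4 cases (13.4% of all tested genes), with a median of 0.39. PSMB5 was 1.21-fold, PSMB6 1.43-fold and PSMB7 1.15-fold higher in DCBQ, with log2 differences of 0.27, 0.51 and 0.20 (limma adjusted p = 0.000722, 0.000311 and 0.0111). The call on PSMB7 was lost when limma was run with no variance trend (adjusted p = 0.0547). The maturation factor POMP, needed to assemble new core particles, was 1.61-fold higher (log2 0.67, limma adjusted p = 6.35e-05). The core subunits PSMB1, PSMB2 and PSMB4, outside the lists and named after their values were seen, were also higher in DCBQ. They were 1.47-fold, 1.39-fold and 1.23-fold higher (limma adjusted p = 7.02e-05, 0.000159 and 0.0032), so the rise was not limited to the inducible subunits and those they replace. PSMB10 per PSMB7, the subunit it replaces, was 0.212, 0.224 and 0.196 in control and 0.286, 0.311 and 0.308 in DCBQ, with no overlap. PSME1 per PSME2 went the other way, from 2.11, 2.08 and 1.85 to 1.18, 1.24 and 1.20. Each of these ratios gave a two-sided exact permutation p of 0.1 (adjusted 0.15 over 3 ratios), the smallest possible here, with 3 of 3 DCBQ libraries beyond all control libraries.

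**Figure D3:**
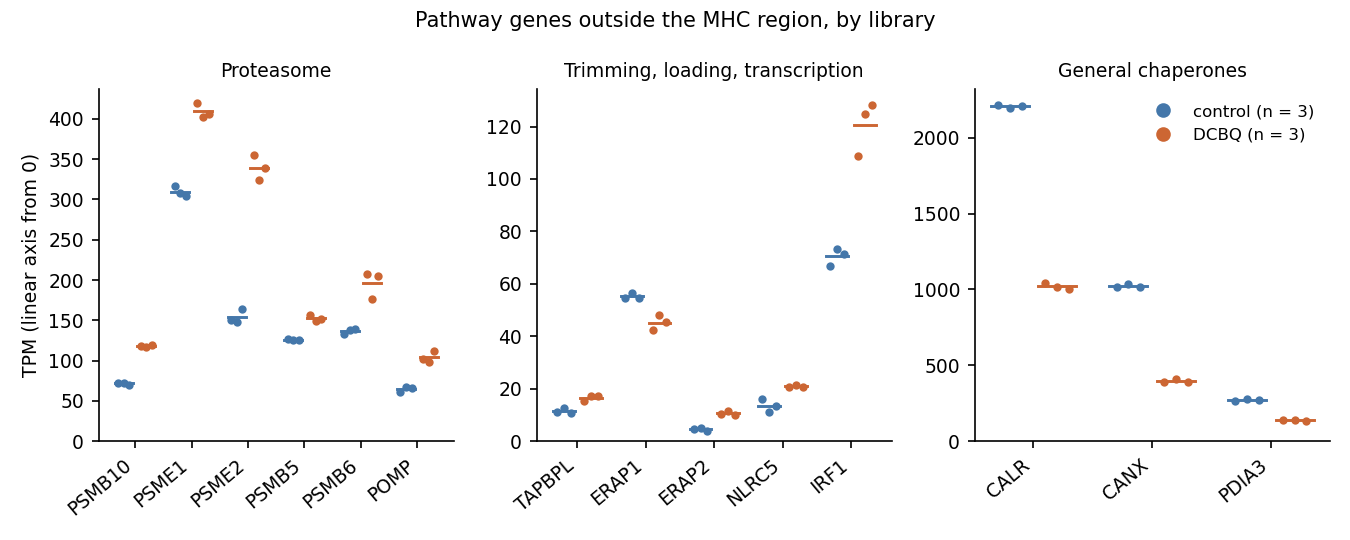
TPM of 14 pathway genes in each library (points, 3 control and 3 DCBQ) on linear axes from 0 that differ between the 3 panels, with short lines at the group means. The DCBQ mean lies above the control mean for PSMB10, PSME1, PSME2, PSMB5, PSMB6, POMP, TAPBPL, ERAP2, NLRC5 and IRF1. It lies below the control mean for ERAP1, CALR, CANX and PDIA3. All 14 passed the limma test, as did 52.9% of all tested genes. Listed genes that did not pass, PSME3 and LNPEP among them, are not drawn, nor are some that did.

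The loading machinery of the endoplasmic reticulum moved in both directions. Of 7 listed genes, 2 rose and 4 fell, beside 13.4% and 39.5% of all tested genes, and the median of -0.28 was near the -0.21 of all tested genes. Calnexin (CANX), which receives new heavy chains, had 1017, 1033 and 1015 TPM in control and 393, 407 and 388 TPM in DCBQ, 2.58-fold lower in the means (log2 -1.365, SE 0.04, limma adjusted p = 1.26e-07). Calreticulin (CALR), a part of the loading complex with TAPBP, was 2.16-fold lower (2208 and 1020 TPM, limma adjusted p = 2.38e-07), and PDIA3 was 1.98-fold lower (272 and 137 TPM, limma adjusted p = 1.07e-06). All 3 are general chaperones or oxidoreductases of the compartment and not specific to class I. The peptide trimmer ERAP2 had 4.501, 5.11 and 3.84 TPM in control and 10.5, 11.5 and 9.80 TPM in DCBQ. That is 2.36-fold higher (log2 1.085, SE 0.13, limma adjusted p = 0.000193). TAPBPL, the tapasin-related peptide editor, was 1.44-fold higher (11.6 and 16.6 TPM, limma adjusted p = 0.00303). The other trimmer, ERAP1, fell by 0.28 on the log2 scale (55.2 and 45.2 TPM, limma adjusted p = 0.00476), a call that median-of-ratios scaling ended (-0.05, limma adjusted p = 0.476). LNPEP, which trims peptides in endosomes, did not pass (-0.14, limma adjusted p = 0.383), with a sign that turned under that scaling.

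Among 13 transcription factors of class I genes, 4 rose and 8 fell, beside 13.4% and 39.5% of all tested genes, with a median of -0.23 beside -0.21. NLRC5, the class I coactivator, had 16.02, 11.2 and 13.4 TPM in control and 20.6, 21.3 and 20.9 TPM in DCBQ, 1.54-fold higher (log2 0.60, SE 0.12, limma adjusted p = 0.00307). IRF1, a factor that binds interferon elements, had 66.8, 73.3 and 71.5 TPM in control and 109, 125 and 128 TPM in DCBQ, 1.71-fold higher (log2 0.76, SE 0.07, limma adjusted p = 6.51e-05). RFX5 and IRF2 rose by 0.39 and 0.37 on the log2 scale (limma adjusted p = 0.00234 and 0.00738). ATF1, a CREB/ATF factor, fell from 35.5 ± 3.44 to 13.5 ± 0.704 TPM (SD, n = 3 each), 2.62-fold lower (limma adjusted p = 1.1e-05). RFXAP, a subunit of the RFX complex with RFX5, was lower by -0.84 (limma adjusted p = 0.000129), and RELA, the p65 subunit of NF-kB, by -0.49 (limma adjusted p = 0.0001). ATF1, RFXAP, RELA and the 4 that rose kept their calls in each of the 16 alternatives tried. The other 5 that fell, NFKB1, NFYB, CREB1, RFXANK and NFYC, were between -0.345 and -0.23, near the median gene, and none of these 5 passed with median-of-ratios scaling. CREB1 also lost its call without control replicate 2 (limma adjusted p = 0.0897), control replicate 3 (0.0898), DCBQ replicate 1 (0.076) or DCBQ replicate 3 (0.05). NFYA did not pass (-0.18, limma adjusted p = 0.0852).

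**Figure D4:**
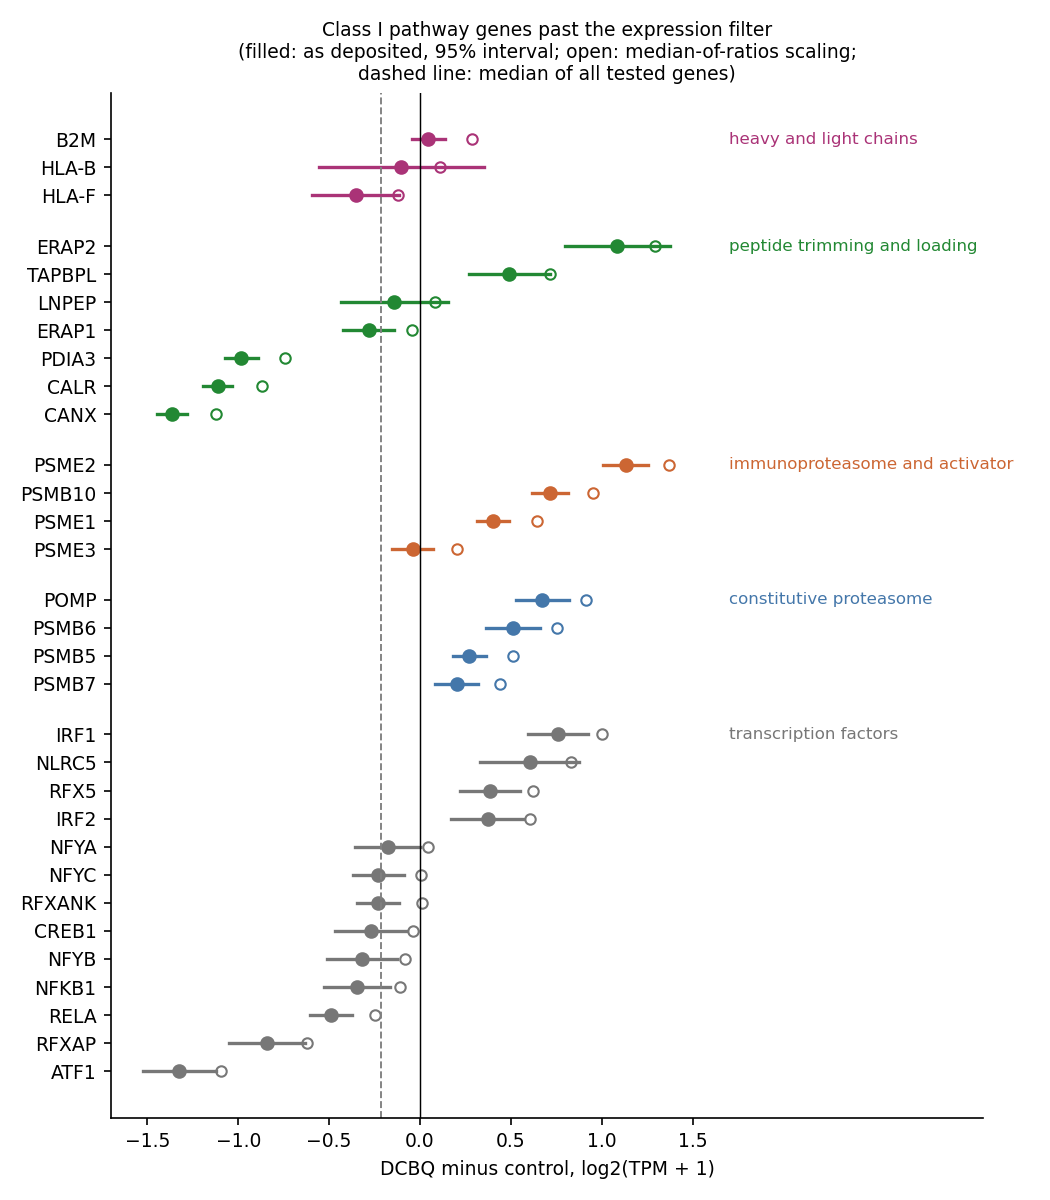
Log2 difference (DCBQ minus control, on log2(TPM + 1)) of the tested genes of the class I lists, filled points with 95% intervals as deposited and open circles with median-of-ratios scaling, the dashed line marking the median of all tested genes at -0.21. The interval of B2M spans -0.04 to 0.14 and that of HLA-B -0.56 to 0.35, while PSME2 at 1.13, ERAP2 at 1.085 and CANX at -1.365 lie far from 0.

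Of 16 listed interferon receptors and signalling genes, 6 fell and 0 rose by limma (2 higher at an unadjusted p under 0.05), with a median of -0.143. The share that fell was near the 39.5% of all tested genes. With median-of-ratios scaling 3 rose and 1 fell. The smallest p was that of PTPN2, a phosphatase that restrains JAK and STAT signals, which fell from 59.2 to 40.7 TPM (log2 -0.53, limma adjusted p = 0.000743). IFNAR1, a receptor chain for type I interferon, fell by 0.31 (limma adjusted p = 0.00982; -0.08 and adjusted p = 0.381 with median of ratios). TYK2, a kinase bound to that receptor, fell by 0.16 (limma adjusted p = 0.0264). It was 0.08 with median-of-ratios scaling, and its call was lost without control replicate 1 (limma adjusted p = 0.0964), control replicate 3 (0.0725), DCBQ replicate 1 (0.0715) or DCBQ replicate 3 (0.0565) and with the replicate block (0.0541). The count of 6 was 2 without control replicate 1, DCBQ replicate 1 or DCBQ replicate 3, and 3 without control replicate 2 or 3.

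Class I-like molecules and natural killer ligands split. Of 14 listed, 8 were tested, 3 rose and 2 fell, beside 13.4% and 39.5% of all tested genes. ULBP1, a stress ligand of the receptor NKG2D, had 17.7, 19.7 and 18.3 TPM in control and 1.72, 1.80 and 2.64 TPM in DCBQ, 9.04-fold lower (log2 -2.69, SE 0.14, limma adjusted p = 2.93e-06). HFE, a class I-like regulator of iron uptake that pairs with B2M, rose 2.48-fold (1.73 and 4.30 TPM, limma adjusted p = 0.00156), and PROCR, the protein C receptor with a class I-like fold, rose 1.39-fold (limma adjusted p = 0.000974). In the class II pathway, the 3 genes tested of 14 all rose (13.4% of all tested genes did) and none of them lies in the MHC: the protease CTSS (1.97 and 7.48 TPM, limma adjusted p = 0.000148), the invariant chain CD74 (306 and 372 TPM, limma adjusted p = 0.000604) and the coactivator CIITA (1.42 and 3.16 TPM, limma adjusted p = 0.00253). Another 10 of the list were at 0 in every library.

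The lists of other cell types were checked beside these values, since a bulk library cannot tell fewer cells of a type from less RNA per cell. Urothelial and epithelial markers were abundant in sum, with 11 of 15 tested and summed levels of 4484 to 4679 TPM in control and 6165 to 6491 TPM in DCBQ. Of the 11, 6 rose and 1, KRT7, fell, beside 13.4% and 39.5% of all tested genes. UPK1A, UPK3A, KRT20 and TP63 were below 1 TPM and not tested. Of 13 leukocyte markers 3 were tested, and the sum was 6.55 to 7.19 TPM in control and 12.4 to 14.4 TPM in DCBQ. Of the 3, 2 rose and 0 fell, beside 13.4% and 39.5% of all tested genes. The highest was CD68, a lysosomal protein, at 3.85 and 8.56 TPM (limma adjusted p = 0.000706). CD14 rose from 0.94 to 2.18 TPM (limma adjusted p = 0.0132), and ITGAM did not pass (limma adjusted p = 0.397). The defining leukocyte marker PTPRC was at most 0.0676 TPM, and CD3D, CD4, MS4A1, FCER1A and LYZ were at 0 throughout. Fibroblast markers summed to 6.83 to 7.80 TPM and 14.8 to 16.6 TPM, with 1 of 7 tested. That gene, COL1A1, rose from 6.7 to 15.1 TPM (limma adjusted p = 6.83e-05). Endothelial markers summed to 6.55 to 7.51 TPM and 8.52 to 14.8 TPM, with 2 of 5 tested, which moved in opposite directions. CDH5 rose from 4.24 to 10.6 TPM (limma adjusted p = 0.00171), and KDR fell from 2.63 to 0.390 TPM (limma adjusted p = 0.000288). The part of other cell types in the differences above was not tested.

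The genes whose profile over the 6 libraries was most like the mean standardized profile of B2M and HLA-B were CBLN3 (r = 0.983), ALG3 (0.971), IL15RA (0.969), AC055811.1 (0.966) and ORC1 (0.953). That mean joins only 2 genes, which peaked in different libraries. B2M was highest in DCBQ replicate 2 (175 TPM) and HLA-B in control replicate 3 (9.87 TPM). Members, genes of the lists and genes without a symbol were left out of this ranking. The r values are correlations over 6 libraries. They were chosen as the highest among the remaining part of the 16734 tested genes, and describe these libraries alone.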

How the data were processed

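Poly(A) RNA of 6 SV-HUC-1 libraries (3 control, 3 DCBQ) was analysed. The authors deposited 1 table of TPM values per Ensembl gene. Per the submitters' processing notes, the tools were StringTie 2.1.7, HISAT2 2.2.1, DESeq2 1.34.0, FastQC and Trimmomatic 0.38, and the build was hg38. The annotation, strand setting, handling of multi-mapped reads and tool behind the TPM were not given in the sources used here. Each library sums to 1000000, so depth is unknown and no interval or floor that needs it is given.

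Symbols came from a table of identifiers (42013) and GENCODE 29 (16500 more), and positions from GENCODE 29 for 58437 of 60624 rows. The limma test (version 3.58.1, R 4.3.3; lmFit and trended eBayes on log2(TPM + 1)) took genes whose mean reached 1 TPM, group as the only term, two-sided, adjusted by Benjamini-Hochberg over 16734 genes and called at an adjusted p under 0.05. Differences on this scale understate changes of low genes, and folds are ratios of mean TPM. Tested on simulated data with the same 16734 genes, the fit recovered 52%, 87% and 96% of log2 changes of 0.5, 1 and 2. Of 172 calls there, 11 were on unchanged genes. The simulation used normal noise and changed only 50, 100 and 50 genes at these sizes, none of them low in level. In the real data 52.9% of tested genes were called, so these rates need not hold there. Ratios were compared with exact permutation over all 20 labellings, two-sided, where the smallest p is 0.1. The members, the lists and the rule for named genes (all members, every gene of the 5 class I lists, the 3 smallest p of the other lists, the genes of the ratios and the 5 most alike genes) were chosen with earlier results of these data known. A few listed genes are not reported here and are left out of the lists' counts. Promoter sequences are RefSeq's, found for 8 of 9 members. Alternatives were other pseudocounts, filters, scalings and variance models, a replicate block, and leaving out each library.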

Additional observations from a re-analysis of the deposited data

How the results depend on the processing

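Depth is unknown, and the 7 members below 1 TPM limit what any setting can show. Scaling mattered most. Over all tested genes the calls were 2247 higher and 6610 lower, 3973 and 3888 (49.5% lower against 74.6%) with median-of-ratios scaling, and 3814 and 3966 (51.0% lower) with quantile normalization. Leaving out 1 library gave 1883 to 2123 higher and 5675 to 6443 lower. Members called higher were 1 (B2M) with median of ratios (0.286) and without mitochondrially encoded genes (0.179). B2M ranged from 0.031 to 0.063 with 1 library left out, and HLA-B from -0.259 to 0.099. HLA-B reversed to 0.108 with median of ratios, 0.129 with quantile normalization and 0.015 without mitochondrially encoded genes. The difference in the ratio of B2M to summed HLA-B, HLA-C and HLA-E ranged from -0.069 to 0.299 on the log2 scale with 1 library left out.

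For the lists, heavy chains lower went from 1 to 0 with no filter, median of ratios, quantile normalization or no mitochondrially encoded genes, and was 0 to 1 with 1 library left out. Transcription factors lower went from 8 to 3 with median of ratios, 4 with quantile normalization and 3 without mitochondrially encoded genes. Interferon signalling higher went from 0 to 1 at a mean TPM of at least 5, 3 with median of ratios, 2 with quantile normalization and 2 without mitochondrially encoded genes, and was 0 to 1 with 1 library left out. Interferon signalling lower went from 6 to 2 with no filter, 1 with median of ratios, quantile normalization or no mitochondrially encoded genes, 3 with no variance trend, and was 2 to 6 with 1 library left out. Natural killer ligands lower went from 2 to 1 with median of ratios and quantile normalization, and higher from 3 to 1 at a mean TPM of at least 5. Class II higher went from 3 to 1 at that filter, and 1 neighbour on chromosome 6 was lower with no filter. The cause of these changes was not tested.

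Of the 38 other genes followed over up to 16 settings, 25 kept direction and call in all and 13 did not. Reversals with median of ratios were TYK2 0.077, LNPEP 0.085, PSME3 0.201, RFXANK 0.009, NFYA 0.046 and NFYC 0.008. With quantile normalization they were LNPEP 0.137, PSME3 0.054 and NFYA 0.086, and without mitochondrially encoded genes PSME3 0.093.

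With the replicate number as a block, 2156 genes were higher and 6344 lower, and interferon signalling lower was 3. After each gene's group mean was taken off, the deviations of same-numbered libraries correlated at -0.037, 0.045 and 0.046. Those of libraries with different numbers correlated at -0.07 to 0.028. Not every library correlated best with its own number, and values this near 0 cannot settle whether the numbers pair the libraries.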
